A study of Mus musculus with 120 samples.

Results

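Skor1 encodes a nuclear corepressor of the SKI family, and it was followed in mouse embryonic stem (mES) cell clones that overexpress single genes of human chromosome 21 or their mouse orthologs. All probesets annotated to Skor1 (older symbol Lbxcor1) were taken. There were 2 among the 45101 probesets of the larger Affymetrix mouse array, used for 19 of the 20 experiments. The 6 Runx1 arrays, of 120 in all, were of a smaller type with 22690 probesets, of which 0 are annotated to Skor1, so Runx1 has no Skor1 value. Skor1 was chosen by its induced minus uninduced differences in these same experiments, and its levels and differences are therefore given as a description, with no test.

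The clones derive from the EB3 line, in which a coding sequence is exchanged into the ROSA26 locus and is transcribed under a Tet-off promoter once tetracycline (Tc) is removed. The induced genes were Aire, Bach1, Dscr1, Dyrk1a, Erg, Ets2, Gabpa, Hunk, Nrip1, Olig1, Olig2, Pdxk, Pfkl, Pknox1, RIKEN-1810007M14, Ripk4, Runx1, Sim2, Snf1lk and Zfp295. Of these, the sequences for Dyrk1a, Snf1lk and Zfp295 were human. The study grew the Hunk and Zfp295 clones with a higher dose of puromycin than its usual one. Each experiment held 3 clones with Tc (uninduced) and 3 after its withdrawal (induced), 6 arrays in all, and both states grew in medium with LIF. The control of each clone thus carries the same transgene, kept in Tc, and nothing in the labels separates the induced gene from the loss of Tc or from time in culture. By the labels RNA was taken after 24 hours in 15 experiments, after 39 hours in Hunk, Ripk4 and Sim2, and after 48 hours in Aire and Pdxk. A further table of the study lists Pfkl at a longer time than its label does.

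SKI-family proteins bind DNA-bound transcription factors and bring histone deacetylases and other corepressors to them. Ski and Skil (SnoN) hold back Smad-dependent transcription downstream of TGF-beta, activin and bone morphogenetic protein (BMP) receptors. Skor1 is known as a partner of the homeodomain factor Lbx1 and marks postmitotic interneurons of the dorsal spinal cord. The clones studied here are pluripotent cells.

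In RefSeq (GRCm38.p6) Skor1 lies on the minus strand of chromosome 9, from 63138164 to 63148961. The promoter table holds 3 windows for it, each from 250 bases before to 50 after a transcript start. The window at the upstream start of the gene is printed because 3 of the induced genes, Erg, Ets2 and Gabpa, encode ETS factors. Capitals mark matches to the ETS core CCGGAA on either strand. The window lies at chr9:63148912-63149211 and reads, 5′ to 3′ on the strand of the gene:

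Skor1 promoter: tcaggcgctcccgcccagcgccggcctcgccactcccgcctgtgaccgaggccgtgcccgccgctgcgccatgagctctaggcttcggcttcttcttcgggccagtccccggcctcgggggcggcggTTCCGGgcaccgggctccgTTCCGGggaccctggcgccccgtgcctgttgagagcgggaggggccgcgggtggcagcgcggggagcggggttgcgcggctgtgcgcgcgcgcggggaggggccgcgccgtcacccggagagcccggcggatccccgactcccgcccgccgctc

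It held 2 matches to CCGGAA, both in the reverse orientation, while 14.9% of the 32851 promoter windows of the table held at least 1. Its GC content was 79.3%, against a median of 52.7% over all windows. The other 2 Skor1 windows, at chr9:63146962-63147261 and chr9:63146931-63147230, overlap each other and held no match. None of the 3 windows held ACGTG, a core bound by bHLH-PAS factors such as Sim2 (19.6% of all windows), or CATATG, an E-box bound by Olig factors (3.91%). These matches are letters in a window and were not tested as binding sites.

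The study also designed q-PCR primers for the transcript under its older symbol. They are shown because they allow the same transcript to be measured by another assay. They carry no marked part, the sources used here do not say which forward primer goes with which reverse one, and none occurs in the 3 promoter windows.

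Lbxcor1 forward primer: ccaccagttgagttcctgtgac
Lbxcor1 forward primer: ggtcccacttcctttccaatct
Lbxcor1 reverse primer: accacagcggcgagaggagatg
Lbxcor1 reverse primer: gccggataaggaagacaatcac

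Of the 2 Skor1 probesets, 1437880_at varied more. The SD of its mean differences over the 19 experiments was 1.08, against 0.11 for the other. The values are log2 intensities made by the authors with the robust multi-array average (RMA), and all levels and differences below are on that scale. Uninduced levels of 1437880_at ran from 3.18 to 6.95 over single arrays and induced levels from 3.11 to 8.53. The mean uninduced level lay between the 29.4th percentile of all probesets (Ripk4) and the 65.1st (Pfkl). The other probeset, 1460100_at, was dim in every experiment, with mean uninduced levels from 3.51 to 4.61, between the 23.8th and the 37.1st percentile. Its mean differences stayed between −0.25 and 0.16 and had the sign of 1437880_at in 13 of 19 experiments. Over the 57 clones the differences of the 2 probesets correlated with r = 0.33, as a description. The account that follows rests on 1437880_at alone, and which transcripts each probeset detects was not tested.

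Since array medians differ between experiments, from 4.89 to 5.68 on this array, uninduced levels were set against the median of their own array before they were ordered. Skor1 stood highest in the Pfkl clones, at 1.17 ± 0.43 above the array median (SD, n = 3), followed by Zfp295 (1.02 ± 0.50) and Aire (1.01 ± 0.24). It stood lowest in Ripk4 (−1.23 ± 1.58), Pknox1 (−0.999 ± 0.78) and Dscr1 (−0.82 ± 0.23). In all 18 pairs of neighbours in this order the ranges of the clones overlapped, so the order of neighbouring experiments is not separated from the spread between clones.

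**Figure D1:**
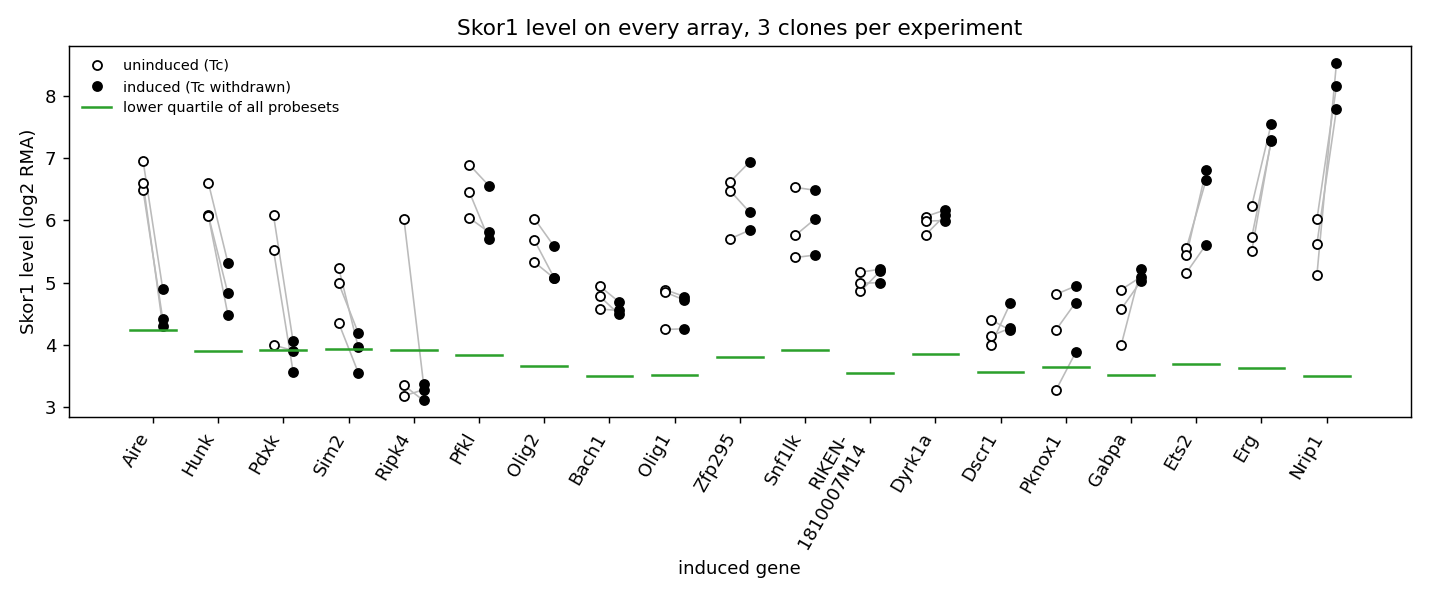
Skor1 level (1437880_at, log2 RMA) on every array of the 19 experiments, with open circles for uninduced and filled circles for induced arrays, grey lines joining the 2 arrays of a replicate number, and a green line at the lowest lower quartile of all probesets among the uninduced arrays of the experiment. Induced arrays reach 8.53 in Nrip1, while in Aire, Pdxk, Sim2 and Ripk4 they lie near or under the lower quartile.

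The largest fall of Skor1 came with Aire, which encodes a transcriptional regulator known from the thymus. The uninduced clones stood at 6.48, 6.95 and 6.60 and the induced ones at 4.42, 4.91 and 4.31. The 2 groups did not overlap, and each clone fell by nearly the same amount. The mean difference was −2.13 ± 0.14 (SD, n = 3), a 4.38-fold lower level. The induced mean of 4.55 lay at the 30.7th percentile of all probesets, near the lower quartile, which limits how far the fold can be read. No other of the 45101 probesets had a mean difference as low in this experiment, a rank that is part of what chose Skor1.

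Hunk, a serine/threonine kinase, gave the same picture at a smaller size. Skor1 stood at 6.08, 6.08 and 6.61 in uninduced and at 4.83, 4.49 and 5.32 in induced clones. The groups did not overlap. The difference was −1.37 ± 0.19 (n = 3), 2.59-fold lower, and it was again the lowest of all probesets.

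For Pdxk, the kinase that makes the active form of vitamin B6, the mean rested on a split among the clones. Uninduced levels were 6.08, 4.003 and 5.52, and induced levels were 4.06, 3.91 and 3.57. Clones 1 and 3 fell by 2.02 and 1.95, whereas clone 2 was already low with Tc and moved by −0.09. By q-PCR the study found a significant but mild leakiness with Tc for Pdxk, and for none of the other genes it compared with the parental line. Its part in these uninduced levels was not tested. The mean was −1.35 ± 1.09 (n = 3), and it was −1.98 without clone 2. The groups overlapped. The induced mean of 3.85 lay at the 24.0th percentile of all probesets, so no fold is given, and the deposited values carry no call of which probesets were above background.

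Sim2 and Ripk4 lay just short of a mean difference of 1, which Hunk and Pdxk passed. Ets2, described below, lay just short of it on the side of higher levels. Sim2 is a bHLH-PAS transcription factor. Skor1 levels in the Sim2 clones were 4.99, 5.23 and 4.35 without and 4.19, 3.96 and 3.56 with induction. The groups did not overlap, and the difference was −0.96 ± 0.27 (n = 3). Ripk4 is a kinase known from the skin. In its experiment uninduced levels were 3.18, 6.02 and 3.35 and induced levels 3.29, 3.38 and 3.11. Here a single array stood high, the uninduced one of clone 2. The mean of −0.93 ± 1.49 (n = 3) became −0.07 when clone 2 was left out, nearer 0 than the means of Pfkl (−0.44), Olig2 (−0.43) and Bach1 (−0.19). However, clones 1 and 3 lay under the lower quartile of all probesets already with Tc (3.92 to 3.97 on the uninduced arrays), as did all 3 induced arrays. A fall could hardly be read in those clones, so the −0.07 does not show that Skor1 was unchanged.

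At the other end stood Nrip1, a corepressor of nuclear receptors. Skor1 rose from 5.62, 5.12 and 6.02 to 7.79, 8.53 and 8.15. All induced arrays lay above all uninduced ones, and the clone with the lowest starting level reached the highest induced one. The difference was 2.57 ± 0.73 (n = 3), 5.92-fold higher, and 5 probesets had a larger one. Without clone 2 it was 2.15.

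Erg and Ets2, ETS transcription factors, followed Nrip1 in size. In the Erg clones Skor1 went from 5.50, 5.73 and 6.23 to 7.29, 7.27 and 7.55. These groups did not overlap, and the difference was 1.55 ± 0.23 (n = 3), 2.93-fold higher. In the Ets2 clones it went from 5.16, 5.56 and 5.44 to 5.61, 6.65 and 6.81, a difference of 0.97 ± 0.47 (n = 3). Gabpa, the third ETS factor, gave 0.62 ± 0.53 (n = 3) from uninduced levels of 4.58, 4.89 and 4.01 and induced levels of 5.02, 5.09 and 5.22. Without clone 3 the Gabpa mean was 0.32. In all 3 experiments the groups did not overlap and each clone rose, but the sizes ranged from 0.20 (Gabpa clone 2) to 1.79 (Erg clone 1).

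The remaining 10 experiments lay between −0.44 and 0.39. Skor1 was lower in all 3 clones of Pfkl (−0.44 ± 0.28), Olig2 (−0.43 ± 0.17) and Bach1 (−0.19 ± 0.15), and higher in all 3 clones of Pknox1 (0.39 ± 0.24), Dyrk1a (0.14 ± 0.16) and RIKEN-1810007M14 (0.13 ± 0.17). In each of these 6 the induced and uninduced levels overlapped. Clones moved in both directions in Olig1 (−0.08 ± 0.08), Zfp295 (0.04 ± 0.34), Snf1lk (0.08 ± 0.16) and Dscr1 (0.21 ± 0.43), as they did in Ripk4 (each SD over n = 3).

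The 5 experiments sampled after more than 24 hours had the 5 lowest means, from −2.13 to −0.93, and Skor1 was lower in 14 of their 15 clones. The place of Ripk4 among the 5 rested on clone 2, without which its mean was −0.07, from clones under the lower quartile of all probesets before induction. A lower mean in all 5 experiments was found for 5005 of 45100 probesets (11.1%). The 14 experiments at 24 hours had means from −0.44 to 2.57, and Skor1 was lower in 14 and higher in 28 of their 42 clones. Pfkl, with the mean of −0.44, is counted here by its label, although a further table of the study lists it at a longer time. Induction time and induced gene cannot be told apart in these experiments, since each gene was profiled at a single time.

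**Figure D2:**
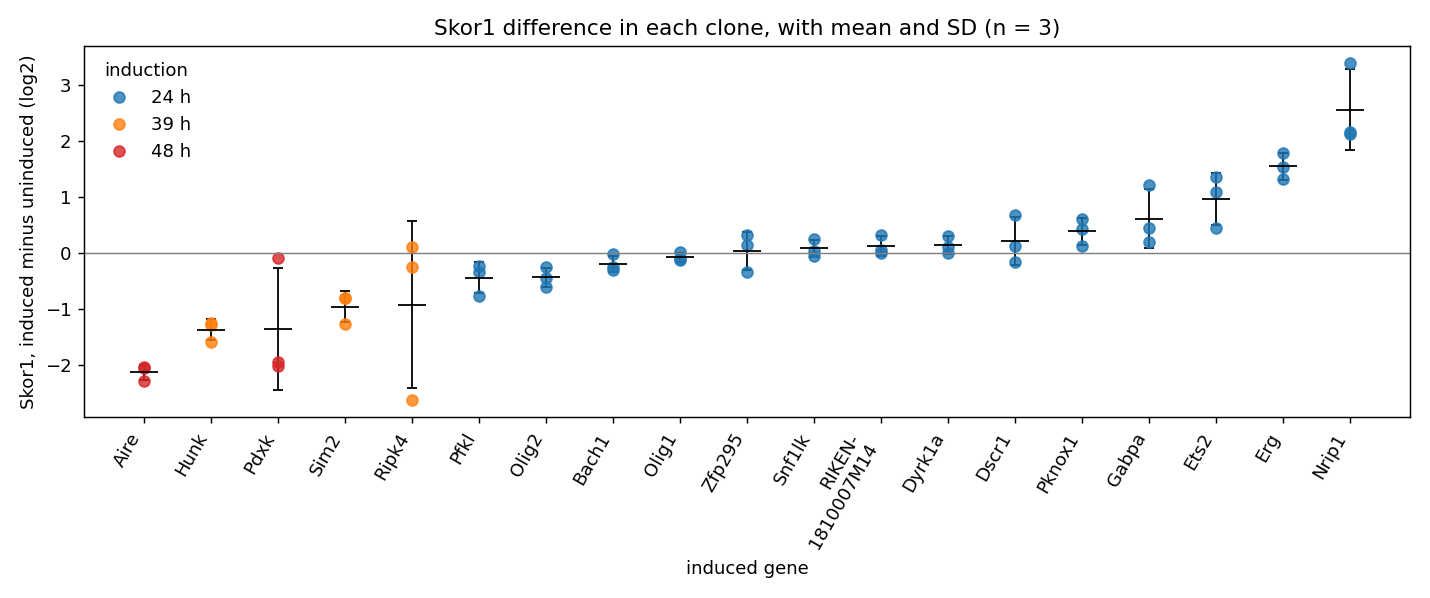
Induced minus uninduced Skor1 level (log2) in each of the 57 clones, with experiments ordered by their mean and coloured by the hours after Tc withdrawal. Horizontal bars and whiskers are the mean and SD of 3 clones, and the 5 experiments at 39 and 48 hours take the 5 lowest means. That of Ripk4 does so through its clone 2 (−0.07 without it, from clones under the lower quartile of all probesets before induction).

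The cells were checked against marker lists. The mean level of 18 naive pluripotency genes lay between 10.3 and 11.4 over the arrays of the 19 experiments. That of the neural list ran from 5.80 to 6.73 and that of the mesoderm list from 4.47 to 5.39, and the lists, being of different probesets, were not set against each other. The mean of 12 primitive endoderm markers lay between 5.15 and 6.78 on all but 6 arrays. On those 6, both arrays of clone 1 of Ets2, Pknox1 and Olig1, it was between 8.30 and 9.31, and 10 of the 12 markers lay more than 1 above the other clones. Skor1 rose least in that clone of Ets2 (0.45), and the mean without it was 1.23. The part of the other cell type in the Skor1 values was not tested.

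The uninduced arrays of clone 2 that set the Ripk4 and Pdxk means apart also differed from their groups in other genes. On the Ripk4 array 1029 probesets lay more than 1 from the mean of the other 2 uninduced arrays, against 76 and 101 for those arrays. For Pdxk the numbers were 491 against 164 and 29. The median over all arrays was 102 probesets. Other arrays also stood apart from those of their own state. The induced array of Nrip1 clone 2, with the highest Skor1 level, had 878, against 351 and 412. The highest numbers were 1825 for the induced array of Ets2 clone 1, 1567 for that of Pfkl clone 1 and 1341 for the uninduced array of Ets2 clone 1. Oxygen-responsive genes, a list of 17 measured genes written after these values were seen, had a mean level of 7.91 on the Ripk4 array, against 9.15 and 9.45 on the other uninduced arrays. On the Pdxk array it was 9.06, against 7.92 and 8.51. The mean difference of this list was 1.09 in Pdxk, 0.76 in Ripk4 and 0.62 in Sim2, and 0.24 in Aire and 0.21 in Hunk, while at 24 hours it lay between −0.01 and 0.42. It correlated with the difference of Skor1 with r = −0.42 over all 57 clones (Spearman's rho −0.34). Without clone 2 of Ripk4 and Pdxk r was −0.35 (rho −0.30, n = 55), and without Aire and Nrip1 −0.56 (rho −0.40, n = 51). Within the clones at 24 hours r was −0.01 (rho −0.08, n = 42) and within the later ones −0.15 (rho 0.11, n = 15). These values describe clones that share experiments, and both differences of a clone come from the same arrays. Their part in the Skor1 values was not tested.

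The other SKI-family genes were measured by 1 to 3 probesets each, and the brightest one of a gene is given. Each was tested with limma, an empirical Bayes linear model fitted to all probesets of an experiment with the replicate number as a block and Benjamini-Hochberg adjustment. The tests were read in the 5 experiments where Skor1 moved by at least 1 in the mean and the same way in all 3 clones (Aire, Hunk, Pdxk, Erg and Nrip1), and in Sim2 and Runx1. Skil, which restrains Smad2 and Smad3, rose in Aire, where Skor1 was lower, by 0.36 (SE 0.07, adjusted p = 0.0335), and in Erg, where Skor1 was higher, by 0.69 (SE 0.08, adjusted p = 0.00179). The call in Aire was lost without clone 2 or clone 3 and without the block. In Aire 2.45% of all probesets were called higher and 1.48% lower, and in Erg 5.71% and 6.28%.

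Ski, the founding member, rose in Erg by 0.57 (SE 0.09, adjusted p = 0.00673), from 9.20 ± 0.27 to 9.77 ± 0.14 (SD, n = 3), a call that was lost without clone 3. Its 2 probesets both passed in Erg. In Aire the brighter one did not (0.17, adjusted p = 0.31) and the dimmer one did (0.38, adjusted p = 0.0442). In Nrip1, where Skor1 rose most, Ski moved by −0.01 (adjusted p = 0.997) and Skil by 0.65 (adjusted p = 0.102).

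Dach1 and Dach2, the more distant relatives, were dim and did not pass in any of these experiments. Their brightest probesets had uninduced means from 3.64 to 4.92 and from 3.56 to 4.91. The lowest and highest differences over the 19 experiments were −0.23 and 0.13 for Dach1, −0.22 and 0.26 for Dach2, −0.20 and 0.57 for Ski and −0.01 and 0.69 for Skil. Correlations with Skor1 over the 57 clones were 0.06 for Ski, 0.17 for Skil, −0.20 for Dach1 and −0.30 for Dach2, as a description. The closest relative, Skor2, was not analysed here. Of the 4 genes limma called 0 in Hunk, Pdxk, Nrip1, Sim2 and Runx1, with 0, 1, 1, 1 and 0 at an unadjusted p under 0.05. The shares of all probesets called there were small in 4 of these experiments. In Hunk 0.00222% were higher and 0.00443% lower, in Pdxk 0.231% and 0.0333%, and in Nrip1 0.113% and 0.0222%. In Sim2 0.643% were higher and 0.271% lower, and in Runx1 8.51% and 7.65%.

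**Figure D3:**
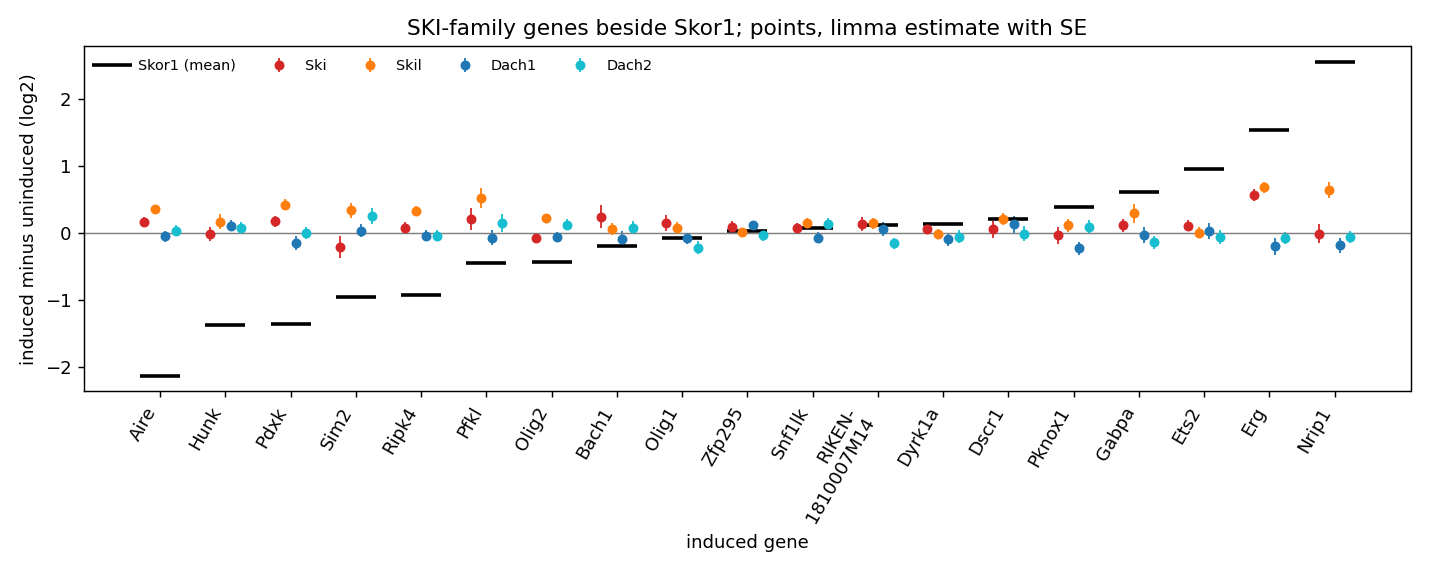
Induced minus uninduced difference (log2) of Ski, Skil, Dach1 and Dach2 in the 19 experiments with a Skor1 value, as limma estimates with their SE, beside the mean difference of Skor1 as black bars. Experiments are in the order of Skor1, whose bars run from −2.13 to 2.57 while the other 4 genes stay between −0.23 and 0.69.

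Lbx1, the homeodomain partner from which the older symbol of Skor1 derives, was named here for that reason after its values were seen. Its differences lay between −0.16 and 0.15, and it passed the test in 0 of 19 experiments (lowest adjusted p = 0.348). Of the 24 measured dorsal spinal cord factors, 0 were called higher and 1 lower in Aire, and 0 and 2 in Erg. The gene in Aire was Gbx2 (−0.45, adjusted p = 0.0234), and those in Erg were Pax8 (−0.87, adjusted p = 0.00108) and Foxd3 (−0.65, adjusted p = 0.00186). In Hunk, Pdxk and Nrip1 limma called none of the 24, with 2, 4 and 1 at an unadjusted p under 0.05.

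Genes of the signalling pathways that SKI proteins act on were called in some of these experiments, in both directions in Aire and Erg. Of all probesets 2.45% were higher and 1.48% lower in Aire, and 5.71% and 6.28% in Erg. In Aire 2 of 29 BMP pathway genes were higher and 2 lower. Id2, an inhibitor of bHLH factors and a target of BMP signals, rose by 0.88 (adjusted p = 0.00338) and Id4 by 0.62 (adjusted p = 0.0103), while the ligands Gdf3 (−0.46, adjusted p = 0.0171) and Bmp4 (−0.41, adjusted p = 0.0362) were lower. In Erg 9 were higher and 2 lower, with Id2 up by 2.51 (adjusted p = 1.31e-05), Id1 by 2.13 (adjusted p = 1.52e-05) and Id3 by 2.08 (adjusted p = 0.000137). In Nrip1 Id2 alone passed, from 7.11 to 8.96 (1.85, adjusted p = 0.025). In Hunk and Pdxk limma called 0 of the 29, with 4 and 8 at an unadjusted p under 0.05. Id2 therefore rose both where Skor1 was lower (Aire) and where it was higher (Erg and Nrip1).

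Of the 25 measured Nodal, activin and TGF-beta genes, 4 were higher and 2 lower in Aire, and 3 and 7 in Erg. Lefty1 and Lefty2 encode extracellular inhibitors of Nodal. In Aire Lefty1 rose by 1.81 (adjusted p = 0.00325) and Lefty2 by 1.10 (adjusted p = 0.00339), whereas the ligand gene Tgfb1 was lower (−0.55, adjusted p = 0.0187). In Hunk Lefty1 was the single listed gene past the test, at 1.09 (adjusted p = 0.0432). In Erg it was lower (−0.71, adjusted p = 0.00289) and Tgfb1 was higher (2.14, adjusted p = 7.94e-05). In Nrip1 the value of Lefty1 was 1.78 (adjusted p = 0.0537). Of the 25 genes limma called 0 in Nrip1 and Pdxk, with 8 and 10 at an unadjusted p under 0.05.

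Histone deacetylases and corepressor partners are the proteins SKI members recruit. Of 21 measured genes limma called 0 in Aire, Nrip1, Hunk and Pdxk, with 5, 3, 0 and 1 at an unadjusted p under 0.05. In Erg 1 was higher, Nrip1 (0.85, adjusted p = 0.000626), and 1 lower, Sap30 (−0.40, adjusted p = 0.0171). Since Nrip1 is itself on this list, the 0 in the Nrip1 experiment includes the induced gene. Why its probeset did not pass there was not tested, and that 0 cannot be read as a result about the partners. Of all probesets 5.71% were higher and 6.28% lower in Erg, and 2.45% and 1.48% in Aire. In Nrip1, Hunk and Pdxk no share of all probesets, higher or lower, was above 0.231%. Whether the counts differ from these shares was not tested.

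Counted over all 179 measured members of the lists other than Skor1, 14 were higher and 12 lower in Aire (7.82% and 6.70%), and 27 and 29 in Erg (15.1% and 16.2%). The oxygen-responsive genes are not among the 179, and no calls are counted for that list, written after its values were seen. Without the replicate block limma called 0 of these genes in Aire, with 31 at an unadjusted p under 0.05, and 40 in Erg. Leaving out clone 3 left 5 calls in Aire and 30 in Erg. The 2 listed genes that passed in Pdxk were the epiblast factor Otx2 (1.46, adjusted p = 0.00452) and the trophoblast factor Ascl2 (0.64, adjusted p = 0.0479). In Nrip1 the 3 that passed were Sox3 (1.92, adjusted p = 0.0259), Id2 and Ascl2 (1.35, adjusted p = 0.025). In Sim2 5 were higher and 2 lower (2.79% and 1.12%). In Runx1, without a Skor1 value, 22 of 171 were higher and 39 lower (12.9% and 22.8%). Single clones decided several of these counts. In limma fits with 1 clone left out, none of the listed genes passed in Nrip1 without clone 1 or clone 3 (55 and 64 at an unadjusted p under 0.05), in Hunk without clone 1 (12), in Pdxk without clone 3 (32) or in Sim2 without clone 2 (24), whereas 45 passed in Pdxk without clone 2 and 7 in Hunk without clone 3. Whether the shares above differ from those of all probesets was not tested.

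The stem cell lists are given by their medians. The 18 naive pluripotency genes had a median difference of −0.48 in Erg and −0.52 in Nrip1, against 0.04 in Aire, 0.05 in Hunk and 0.02 in Pdxk. The median of all probesets lay between −0.02 and 0.00 in these 5. In Erg 1 naive gene was higher and 11 lower, led by Nr0b1 (−2.03, adjusted p = 1.84e-05) and Prdm14 (−1.89, adjusted p = 0.000268), both factors of the pluripotency network. In Nrip1 0 of the 18 passed, with 12 at an unadjusted p under 0.05. The 16 formative and primed epiblast genes had medians of 0.34 in Erg and 0.56 in Nrip1, against 0.07 in Aire, 0.07 in Hunk and 0.17 in Pdxk. Whether these medians differ between experiments was not tested.

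The gene whose differences followed those of Skor1 most closely by Pearson r belonged to the epiblast list. Over the 57 clones Pou3f1 (Oct6), a POU factor of the early epiblast, had r = 0.83, the highest of all genes with a probeset of their own. Having been picked on these clones for that likeness, it is given without a test, with differences of −0.63 in Aire, 0.80 in Erg and 1.38 in Nrip1. Next came Exoc3l (0.81), Dab1 (0.80), an adaptor of reelin signalling, S100a6 (0.80), a calcium-binding protein, and Hmga2 (0.79), a chromatin protein of early embryos. By Spearman's rho Exoc3l (0.87) stood above Pou3f1 (0.79). Pou3f1 did not follow Skor1 everywhere, with 0.20 in Pdxk and 0.11 in Ripk4.

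The most opposite genes were Gjc1 (r = −0.86), a gap junction protein, Dnajc6 (−0.85), which uncoats clathrin vesicles, Ndrg2 (−0.82), Ly6g6e (−0.81) and Kit (−0.80), the receptor of stem cell factor. Kit stood at a difference of −0.95 in Nrip1 and −1.06 in Erg and at 0.30 in Aire and Hunk. Gjc1 ran from 0.50 in Pdxk to −0.57 in Nrip1, a narrower range than that of Skor1. These correlations are over clones that share experiments, and both differences of a clone come from the same arrays. Without Aire and Nrip1, the experiments of the largest fall and rise, r was 0.67 for Pou3f1, 0.85 for Exoc3l and −0.83 for Gjc1 over the remaining 51 clones.

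**Figure D4:**
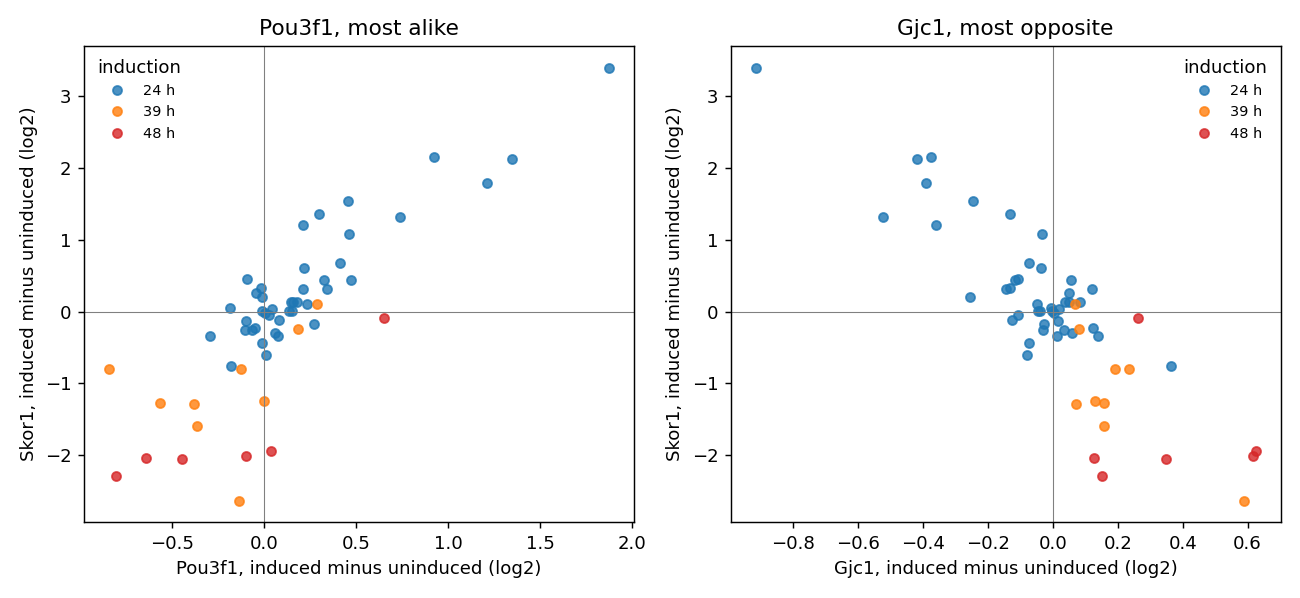
Induced minus uninduced difference of Skor1 (log2, vertical) against that of Pou3f1 (left, r = 0.83) and Gjc1 (right, r = −0.86) in 57 clones, coloured by the hours after Tc withdrawal. The clones at 39 and 48 hours lie mostly at negative Skor1 values, and the highest point in both plots is clone 2 of Nrip1 at 3.40.

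The genes beside Skor1 on chromosome 9 did not show its range. Of the 5 protein-coding neighbours on each side, 9 were measured (Fem1b, Cln6, Calml4, Pias1, Map2k5, 2300009A05Rik, Iqch, Aagab and Smad3), and Itga11 was not analysed here. Their differences lay between −0.42 and 0.98 over the 19 experiments. In Erg the lysosomal disease gene Cln6 (0.53, adjusted p = 0.0197) and Smad3 (0.54, adjusted p = 0.039), the effector of TGF-beta and activin receptors, rose. In Aire, Nrip1, Hunk and Pdxk limma called 0 of the 9, with 3, 3, 3 and 4 at an unadjusted p under 0.05. Calml4, a calmodulin-like gene, reached 0.98 in Nrip1 (adjusted p = 0.102), where Skor1 rose by 2.57, and had the highest r with Skor1 of the 9 (0.57).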

How the data were processed

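Total RNA of mES clones was hybridised to 2 types of Affymetrix mouse array. As deposited, values are on a log2 scale, from RMA as run by the authors in affy, with versions not given in the sources used here. Array medians lie within 0.09 of each other inside an experiment and differ between experiments, so levels were compared within experiments. Probesets were named from the annotation of the array (34958 with 1 gene, 932 with several, 9211 with none on the larger type). Arrays were grouped by the gene and state in their labels and paired by replicate number, since the rule for Skor1 and the tabulated ratios of the study are taken within a number. The t-test of the study's methods is unpaired. After removal of state means, the r of paired arrays was above 0.1 in 54 of 60 pairs (median 0.376). Labels do not say whether a number names 1 clone in both states, and precision is limited by 3 arrays per state. A further table of the study lists the Sim2 clones in another order before and after induction, and 2 Olig2 clones under Olig1. The pairs of Sim2 were therefore also crossed.

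The Skor1 levels and differences, and their likeness to other genes, are descriptions. Other genes were tested per experiment with limma 3.58.1 in R 4.3.3, with replicate number as a block, empirical Bayes moderated variances and p-values adjusted by Benjamini-Hochberg across the whole array, at an adjusted p under 0.05. A gene was represented by its probeset of highest mean level. The members and all 11 gene lists, 195 genes of which 180 were measured there, were chosen with earlier results of these data known. Named are all Skor1 probesets, the SKI family, up to 4 members of each list past the test in an experiment where Skor1 moved by at least 1, the 5 genes of highest and of lowest r, and the 5 neighbours on each side. The fit was tested on simulated data of 6 experiments, where a log2 change of 2 was found in 80 to 96% of the changed probesets and a change of 1 in 34 to 76%. Alternatives were fits without the block, with trend and robust moderation, without dim probesets, the methods' t-test, a second quantile normalization, an FDR of 0.01 and leaving out each clone. Other steps used pandas 2.3.3, numpy 2.4.6 and, for plots, matplotlib 3.10.9 under Python 3.11.15.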

Additional observations from a re-analysis of the deposited data

Results flagged for a closer look

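Skor1 moved in opposite directions under the same contrast. The mean induced minus uninduced log2 difference was −2.13 in Aire, −1.37 in Hunk and −1.35 in Pdxk, with all 3 clones lower in each, and 1.55 in Erg and 2.57 in Nrip1, with all 3 clones higher. In Pdxk, though, clone 2 moved by only −0.09 and the induced and uninduced levels overlapped. The difference between these experiments was not tested, because Skor1 was chosen for it. Induction lasted longer in Aire, Hunk and Pdxk than in Erg and Nrip1, and time and induced gene cannot be told apart.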

How the results depend on the processing

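The mean Skor1 differences moved by less than the SD over clones under a second quantile normalization and under subtraction of the array median. Crossing the pairs of Sim2 cannot change its mean difference, so that setting is no check of it. Leaving out a clone gave −2.17 to −2.05 in Aire, −1.44 to −1.27 in Hunk, −1.98 to −1.02 in Pdxk, −1.44 to −0.07 in Ripk4, −1.03 to −0.80 in Sim2, 0.32 to 0.83 in Gabpa, 0.77 to 1.23 in Ets2, 1.43 to 1.66 in Erg and 2.15 to 2.78 in Nrip1, with smaller means at −0.55 to −0.28 in Pfkl, −0.52 to −0.35 in Olig2, −0.27 to −0.14 in Bach1, −0.122 to −0.0503 in Olig1, 0.28 to 0.52 in Pknox1, 0.0563 to 0.21 in Dyrk1a and 0.0279 to 0.186 in RIKEN-1810007M14, and it turned the sign in Dscr1, Snf1lk and Zfp295, whose means are near 0. The other Skor1 probeset, which was dim, gave −0.0437 in Aire, 0.157 in Erg, 0.0268 in Ets2, −0.0717 in Gabpa, 0.0699 in Nrip1, 0.0840 in Olig1, −0.0898 in Pknox1, −0.0615 in Hunk, −0.107 in Dyrk1a, −0.246 in Pdxk, −0.0730 in Pfkl, 0.0342 in Olig2 and −0.15 in Sim2.

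Counts of listed genes called depended on the replicate block. With no replicate block limma called 0 of them in Aire, Nrip1, Hunk and Pdxk, where the pairing by replicate number gave 26, 3, 1 and 2, and 31, 42, 15 and 37 had an unadjusted p under 0.05. In Sim2 it called 3 of the 7, and in Erg and Runx1 40 and 60. The methods' t-test after Benjamini-Hochberg called 0 in Aire, Nrip1, Hunk, Pdxk and Sim2 (21, 23, 16, 22 and 27 at an unadjusted p under 0.05), 5 in Erg and 28 in Runx1. Trend and robust moderation called 9 in Nrip1, 3 in Hunk and 11 in Sim2. At an FDR of 0.01 there were 5 in Aire, 33 in Erg, 40 in Runx1, 1 in Pdxk and 0 in Nrip1, Hunk and Sim2. The filter on dim probesets left 0 in Hunk and 1 in Pdxk, as did the second quantile normalization, and the crossed pairing left 0 in Sim2. Leaving out a clone gave 5 to 25 calls in Aire, 30 to 49 in Erg, 0 to 5 in Nrip1, 0 to 7 in Hunk, 0 to 45 in Pdxk, 0 to 10 in Sim2 and 52 to 56 in Runx1. The 45 in Pdxk came without clone 2, whose uninduced array stands apart, a setting named after seeing the data. The calls of Skil in Aire and of Ski and Skil in Erg were lost with the methods' t-test, and that of Skil in Aire also without the block and at an FDR of 0.01. The second quantile normalization was not run for Runx1, whose arrays are of another type. The pattern by r held 3 of the 5 most alike genes among the first 50 once Aire and Nrip1 were left out. The causes of these changes were not tested.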
